A study of Mus musculus with 7 samples.

Results

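The electron transport chain and ATP synthase were examined in splenic B cells of mice that overexpress miR-155, through the messenger RNAs of 40 nuclear genes for subunits of complexes I, III, IV and V. The genes were listed by name, with earlier results of these data known. For 39 of the 40 the array carried a probe set that the platform annotation assigns to that gene alone, and where there were several the one with the highest mean over all 7 arrays was used. Cox7b had no such probe set and was not analysed here. All 39 passed the filter on dim probe sets, and they stand among 9517 genes tested. By complex they comprise 21 subunits of complex I, 7 of complex III, 7 of complex IV and 4 of complex V, with Ndufa4 counted in complex IV, where its protein is now placed.

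Mitochondrial respiration passes electrons from NADH through complex I, ubiquinone, complex III and cytochrome c to complex IV, which reduces oxygen. Complexes I, III and IV pump protons out of the matrix as they do so, and complex V lets them back to make ATP. Resting B cells have small mitochondrial needs that grow when the cells are activated and divide, and the nuclear genes for the subunits are commonly expressed together.

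The TG group held 3 Eµ-miR-155 transgenic mice of the FVB strain, in which the heavy chain enhancer Eµ drives miR-155 in the B lineage, and the WT group held 4 wild-type FVB mice. The labels name no treatment, age, sex or founder line. B cells were taken from the spleen with a MACS B cell kit, and each array is taken as 1 mouse. A deposited value is a log2 signal, so a difference of 1 is a doubling, and values of 4 or less count as background. With so few arrays the precision of every difference is limited by their number.

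B cell markers were strong in both groups but lower on the TG arrays, and markers of most other cell types were higher there. All 9 measured B cell markers were above background, with a log2 summed signal of 16.59 to 17.03 on TG arrays and 17.14 to 17.22 on WT arrays. Of these 9, 0 had a positive change, against 50.5% of all genes, and their median change was -0.27. For 10 granulocyte markers the log2 summed signal was 13.94 to 14.95 on TG arrays and 6.21 to 7.96 on WT arrays, where 7 of the 10 were at background on every array. Most of the TG signal came from Mpo, Elane, Prtn3 and Ctsg. Ltf, Camp and Lcn2 were above background on only 1 of 3 TG arrays and Ngp on 2, and they were not tested. Of 15 cell cycle genes 13 were higher, against 8.11% of all genes. Their log2 summed signal was 14.11 to 15.04 on TG arrays and 13.44 to 13.61 on WT arrays. The summed T cell markers stood at 7.67, 8.12 and 12.86 on TG replicates 1 to 3 and at 7.21 to 7.56 on WT arrays. The summed natural killer, monocyte and macrophage, dendritic, platelet, progenitor and plasma cell markers were higher on every TG than every WT array. For blood progenitors the log2 summed signal was 11.29 to 12.33 on TG arrays and 10.60 to 11.12 on WT arrays. Most of the WT sum came from Spi1, at 10.45 to 11.00 there and 10.32 to 10.74 in TG, which did not pass. Of the 5 progenitor markers tested 4 rose, against 8.11% of all genes, and Cd34 among them entered the test only through TG. Myb was at 8.88 to 11.36 in TG and 5.64 to 6.58 in WT. Summed erythroid markers overlapped between the groups. The part of these differences in the results below was not tested. Xist was at 13.73 to 13.93 on the TG arrays and at 13.79, 13.61, 2.22 and 2.81 on WT replicates 1 to 4, so WT replicates 3 and 4 were male by this gene and the other arrays female. In such bulk RNA a larger share of cells of one type and more RNA per cell cannot be told apart.

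To show what precedes these genes on the chromosome, promoter stretches of 3 subunits are given from RefSeq (build GRCm38.p6), with every match to a searched motif in capitals. Cox6a1, a complex IV subunit that rose, holds 2 matches to the NRF1 motif, 1 to the CCAAT box of NF-Y and 1 to the ETS motif that GABPA binds. Ndufa8, a complex I subunit that rose, holds 1 NRF1 match. Atp5b, the catalytic beta subunit of complex V, did not pass the test and holds 5 CCAAT boxes in either orientation. These 3 are examples and do not stand for the set. No searched motif was found in 11 of the 29 member windows, from 250 bases before to 50 after the start. The NRF1 motif was in 2 of 9 windows of members that rose and in 2 of 20 of those that did not pass. The stretches run upstream of the annotated start, from base -180 to -1 for Cox6a1 (chr5:115348959-115349138, minus strand), from -100 to -1 for Ndufa8 (chr2:36049339-36049438, minus strand) and from -230 to -60 for Atp5b (chr10:128083077-128083247, plus strand).
Cox6a1: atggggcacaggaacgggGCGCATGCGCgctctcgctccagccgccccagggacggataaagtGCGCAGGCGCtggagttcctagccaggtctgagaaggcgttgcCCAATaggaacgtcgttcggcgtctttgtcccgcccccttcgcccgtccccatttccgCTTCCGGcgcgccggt
Ndufa8: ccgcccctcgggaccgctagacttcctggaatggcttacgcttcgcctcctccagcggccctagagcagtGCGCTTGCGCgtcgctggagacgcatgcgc
Atp5b: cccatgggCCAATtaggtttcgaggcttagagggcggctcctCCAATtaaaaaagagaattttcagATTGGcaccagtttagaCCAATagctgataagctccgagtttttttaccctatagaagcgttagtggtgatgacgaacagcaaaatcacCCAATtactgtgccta

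Subunits of the respiratory chain were slightly higher in TG than in WT B cell isolates, by a median of 0.17 on the log2 scale or 12.5%. Of the 39, 12 rose (limma, adjusted p under 0.05) and 0 fell, a share of 30.8% against 8.11% of all 9517 genes that were higher and 2.56% that were lower. Over all probe sets tested, 5.63% were higher. At an unadjusted p under 0.05, 25 members were higher and 2 lower, against 20.0% and 11.0% of all genes. A positive change was measured for 35 of 39 members, against 50.5% of all genes. The changes were small throughout: they ran from -0.18 to 0.41, and 0 of the 39 reached 1.5-fold. The median over all genes that rose, whatever their level, was 0.94. Among the 3610 genes whose mean level lay in the members' range of 9.54 to 13.72, 7.29% were higher, 4.18% were lower and 45.8% had a positive change. Of the 263 genes that rose in that range, 35 reached 2-fold. In that range 18.7% of genes had every TG array above every WT array, against 64.1% of the members.

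Per array, the members' mean deviation from their WT means was 0.14, 0.19 and 0.21 on the log2 scale on TG replicates 1, 2 and 3, and 0.00, 0.01, -0.03 and 0.02 on WT replicates 1 to 4. All 3 TG arrays thus lay above all 4 WT arrays. For 25 members every TG array was above every WT array, against 19.5% of all genes; for 1 (Uqcrb) every TG array was below every WT array, against 10.4%; and for 13 the groups overlapped. The number that passed depended on single arrays. It was 0 without TG replicate 2 or WT replicate 4, 1 without WT replicate 2, 2 without WT replicate 3, 4 without WT replicate 1, 7 without TG replicate 3 and 13 without TG replicate 1, while the median change stayed between 0.16 and 0.21 in these fits. At the adjusted threshold 0.841% of all genes were higher without TG replicate 2 and 2.48% without WT replicate 4. At an unadjusted p under 0.05, 21 members were higher and 0 lower without TG replicate 2, against 17.0% and 8.11% of all genes. Without WT replicate 4 these were 24 and 2 members, against 17.5% and 8.43% of all genes. With the female arrays alone (TG replicates 1 to 3, WT replicates 1 and 2) 0 members passed, against 0.116% of all genes that were higher, and the median was 0.21. At an unadjusted p under 0.05, 20 members were higher and 0 lower in that fit, against 13.8% and 6.60% of all genes.

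**Figure D1:**
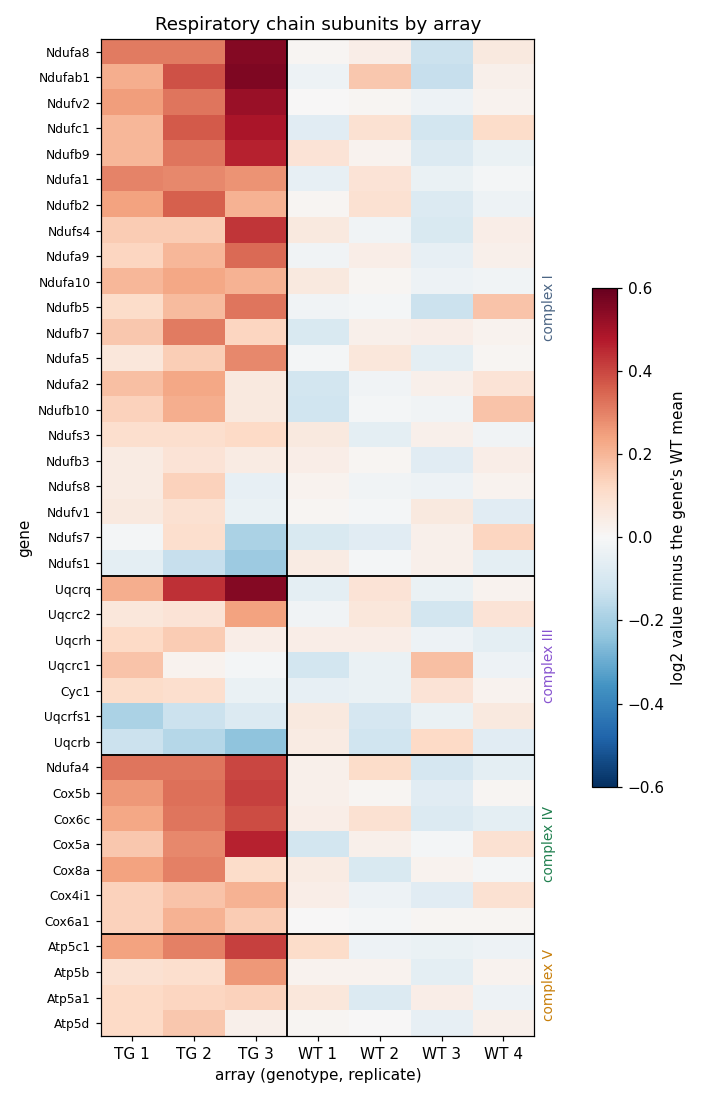
Each row is a subunit gene and each column an array, TG replicates on the left and WT replicates on the right; colour gives the log2 value minus the gene's WT mean, from blue (lower) to red (higher), and black lines part the complexes. Most rows are red on all 3 TG arrays, complex IV in all 7 rows, while Ndufs1, Uqcrb and Uqcrfs1 are blue there.

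Complex I takes electrons from NADH. Of its 21 subunits 6 rose and 0 fell, against 8.11% and 2.56% of all genes. A positive change was measured for 19, against 50.5%, and the median was 0.20. Ndufa8, an accessory subunit of the membrane arm, had 10.54, 10.54 and 10.78 in TG and 10.24, 10.27, 10.10 and 10.29 in WT. Its change of 0.39 ± 0.08 (SE, limma adjusted p = 0.035) was the highest in complex I, and its groups did not overlap.

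Ndufa1, an accessory subunit encoded on the X chromosome, had 12.77, 12.76 and 12.74 in TG against 12.42, 12.55, 12.43 and 12.46 in WT. The TG arrays lay within a few hundredths of each other and above every WT array, and the change was 0.29 ± 0.04 (SE, limma adjusted p = 0.0182). Within WT, the mean of replicates 3 and 4, with low Xist, minus that of replicates 1 and 2 was -0.04.

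Ndufv2, which carries an iron-sulphur cluster of the NADH-oxidising module, had 12.22, 12.29 and 12.49 in TG and 11.97, 11.98, 11.94 and 11.99 in WT. The WT arrays were close together and TG replicate 3 was the highest. The change was 0.36 ± 0.07 (SE, adjusted p = 0.0295), and its 2 other tested probe sets also passed, at 0.41 and 0.31. Ndufa10, of the membrane arm, had 10.95, 10.98 and 10.96 in TG and 10.81, 10.76, 10.72 and 10.73 in WT, a change of 0.21 ± 0.04 (SE, adjusted p = 0.0339). Both groups were narrow and did not overlap. Ndufb9, of the distal membrane arm, had 11.46, 11.58 and 11.72 in TG and 11.34, 11.28, 11.18 and 11.22 in WT, a change of 0.33 ± 0.07 (SE, adjusted p = 0.0439). The sixth to pass, Ndufb2, changed by 0.27 ± 0.06 (SE, adjusted p = 0.045); a dimmer probe set of it changed by -0.18 and did not pass.

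Other complex I subunits lay near the threshold or showed little difference. Ndufab1, the mitochondrial acyl carrier protein, changed by 0.38 (adjusted p = 0.064), Ndufc1 by 0.35 (0.0594; its second probe set passed, at 0.31) and Ndufa9 by 0.22 (0.0739). A dimmer probe set of Ndufab1 went the other way, at -0.29, and did not pass. The changes of Ndufs4, Ndufb5, Ndufb7, Ndufa5, Ndufa2 and Ndufb10 were between 0.14 and 0.24, and those of Ndufs3, Ndufb3, Ndufs8 and Ndufv1 between 0.04 and 0.10, none passing.

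The lowest change of complex I was that of Ndufs1, the iron-sulphur subunit through which electrons leave the NADH module. It had 10.87, 10.79 and 10.71 in TG and 10.98, 10.92, 10.96 and 10.87 in WT, a change of -0.14 ± 0.05 (SE) that did not pass (adjusted p = 0.142). Ndufs7, a core subunit of the ubiquinone-reducing module, was nearest to 0, with 11.53, 11.64 and 11.35 in TG and 11.45, 11.47, 11.57 and 11.67 in WT. Its groups overlapped, the change was -0.03 ± 0.09 (SE, adjusted p = 0.817), and its sign turned under 7 of 18 alternative settings.

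Complex I subunits were also sorted by the part they build. Of the 11 in the proton-pumping membrane arm 5 rose, against 8.11% of all genes. All 11 had a positive change, against 50.5%, and the median was 0.27. The 5 subunits of the NADH-oxidising module included 1 that rose (Ndufv2), with a median of 0.16 and a range of -0.14 to 0.36. Among the 5 of the ubiquinone-reducing module 0 passed in limma (2 higher at an unadjusted p under 0.05, Ndufa5 and Ndufa9), with a median of 0.10 and a range of -0.03 to 0.22. Differences between these modules were not tested.

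**Figure D2:**
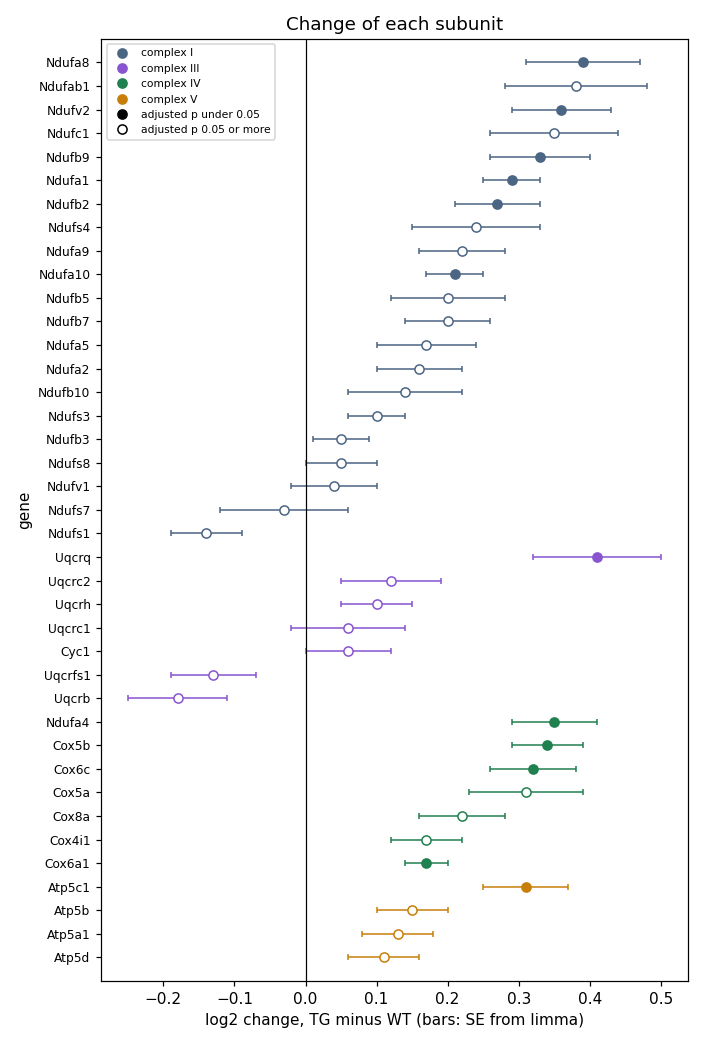
The horizontal axis is the log2 change, TG minus WT, of each subunit with its standard error from limma; colours mark the complexes and filled points an adjusted p under 0.05. Changes lie between -0.18 and 0.41, with 35 of 39 above 0 and the 12 filled points all above 0.

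Complex III moves electrons from ubiquinol to cytochrome c. Of its 7 subunits 1 rose (against 8.11% of all genes), 5 had a positive change (against 50.5%), and the median was 0.06. Uqcrq, a small subunit beside cytochrome b, had 10.55, 10.77 and 10.88 in TG and 10.27, 10.41, 10.29 and 10.35 in WT. The groups did not overlap, and the change of 0.41 ± 0.09 (SE, limma adjusted p = 0.0383) was the highest of all 39 members.

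Uqcrb, a small subunit near the quinone site, stood at the other end, with 13.50, 13.46 and 13.39 in TG and 13.68, 13.51, 13.75 and 13.56 in WT. TG replicate 1 and WT replicate 2 almost met. The change was -0.18 ± 0.07 (SE) and did not pass (adjusted p = 0.137); its second probe set changed by -0.22. The Rieske iron-sulphur protein gene Uqcrfs1 changed by -0.13 (adjusted p = 0.19).

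Cyc1, which encodes cytochrome c1, was nearest to 0 in complex III, with 11.79, 11.78 and 11.64 in TG and 11.63, 11.64, 11.76 and 11.70 in WT. Its groups overlapped (change 0.06 ± 0.06 SE, adjusted p = 0.529). The core subunit genes Uqcrc1 and Uqcrc2 changed by 0.06 and 0.12 and the hinge protein gene Uqcrh by 0.10, none passing.

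Complex IV, cytochrome c oxidase, had the highest median of the 4 complexes, 0.31. Differences between the complexes were not tested. Of its 7 subunits 4 rose, against 8.11% of all genes, and all 7 had a positive change, against 50.5%. In all 7 every TG array was above every WT array, against 19.5% of all genes. Cox5b, a zinc-binding subunit on the matrix side, had 12.39, 12.46 and 12.54 in TG against 12.16, 12.14, 12.06 and 12.14 in WT. The gap between the groups was wider than either group's range, and the change was 0.34 ± 0.05 (SE, limma adjusted p = 0.0183). Of its 4 other tested probe sets 3 passed, at 0.36, 0.32 and 0.36, and the dimmest was at -0.20.

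Ndufa4 had 12.08, 12.08 and 12.16 in TG and 11.79, 11.87, 11.66 and 11.70 in WT, a change of 0.35 ± 0.06 (SE, adjusted p = 0.0256). Cox6c, a small transmembrane subunit, had 12.51, 12.60 and 12.67 in TG and 12.32, 12.37, 12.20 and 12.22 in WT, a change of 0.32 ± 0.06 (SE, adjusted p = 0.0313). In both genes WT replicates 3 and 4 were the lowest. Cox6a1, the widely expressed form of subunit VIa, had 13.79, 13.86 and 13.80 in TG and 13.65, 13.64, 13.66 and 13.66 in WT. With Cox4i1 it had the smallest change of complex IV, 0.17 ± 0.03 (SE), and it passed (adjusted p = 0.0302) with very narrow groups.

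The other complex IV genes did not pass. Cox5a, the partner of Cox5b on the matrix side, changed by 0.31 (adjusted p = 0.063), Cox8a by 0.22 (0.0698) and Cox4i1, the widely expressed form of subunit IV, by 0.17 (0.0766). Forms of these subunits that other tissues use were at background: Cox4i2, Cox7a1, Cox7b2, Cox8c and Ndufa4l2 were at 2.17 on all 7 arrays, and Cox6a2 and Cox8b did not exceed 2.74 on any. The exception was Cox6b2, known as the testis form of subunit VIb, with 5.25, 6.08 and 7.07 in TG and 2.64, 4.32, 2.96 and 4.32 in WT. It passed (adjusted p = 0.0461); with values under 4 set at 4 the increase was 1.98, and it was above background on 3 of 3 TG and 2 of 4 WT arrays.

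Complex V makes ATP. Of its 4 members 1 rose, against 8.11% of all genes. All 4 had a positive change, against 50.5%, and the median was 0.14. Atp5c1, the gamma subunit of the rotor stalk, had 12.59, 12.65 and 12.76 in TG and 12.46, 12.32, 12.31 and 12.32 in WT. WT replicate 1 stood above the other WT arrays and still below TG, and the change was 0.31 ± 0.06 (SE, limma adjusted p = 0.0287). A dimmer probe set of Atp5c1 was at -0.10. The catalytic core genes Atp5a1 and Atp5b changed by 0.13 and 0.15 and did not pass (adjusted p = 0.116 and 0.119). Atp5d, the delta subunit, had the change nearest to 0, with 11.58, 11.62 and 11.49 in TG and 11.47, 11.46, 11.41 and 11.49 in WT (0.11 ± 0.05 SE, adjusted p = 0.184).

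**Figure D3:**
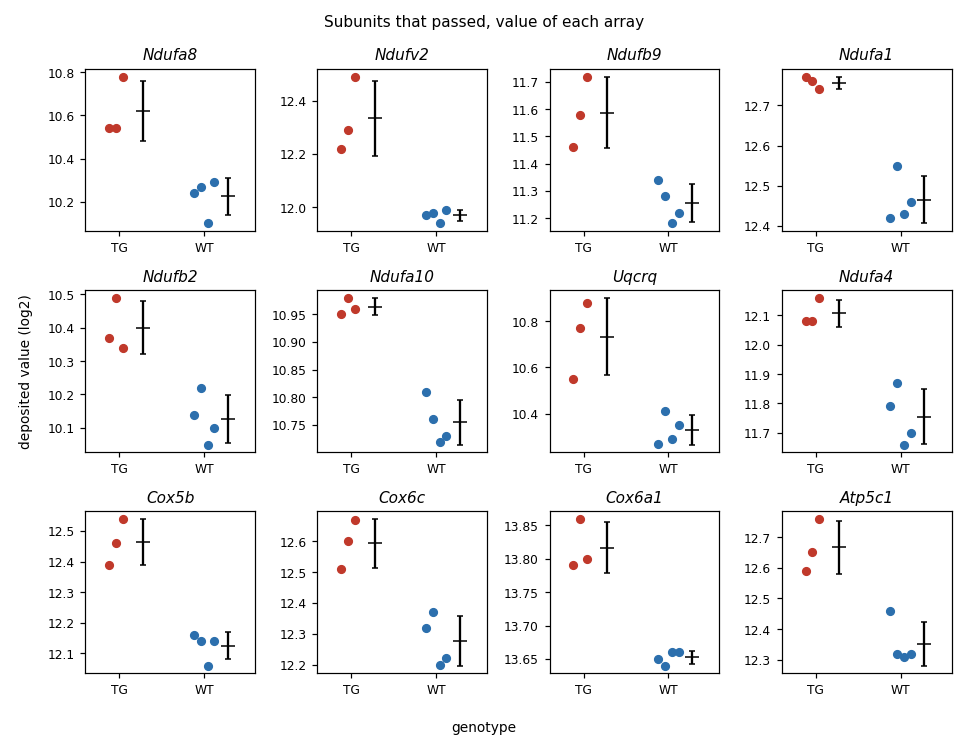
The 12 subunits that passed, each with its own vertical axis of deposited log2 values; points are arrays, TG on the left and WT on the right, and the bars show the mean and SD (n = 3 TG, n = 4 WT). Every TG point lies above every WT point in all 12 panels.

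Members differed in how TG replicate 3, the array with T cell markers, stood to the other TG arrays. Against the mean of TG replicates 1 and 2 it was higher for 21 members and lower for 18, with a median difference of 0.02. Ndufab1 and Ndufs4 were 0.27 higher on it, and Ndufa8, Ndufv2 and Cox5a 0.24 higher. Ndufs7 differed by -0.24, Cox8a by -0.16 and Cyc1 and Ndufa2 by -0.15. TG replicate 2 was above TG replicate 1 for 33 of 39 members, by a median of 0.06. Among WT arrays, replicates 3 and 4 were above replicates 1 and 2 for 15 members and below for 24, with a median of -0.02. The median SD of a member was 0.0867 in TG and 0.066 in WT.

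Several probe sets of one gene gave mostly the same sign. Among 23 members with a further tested probe set, all agreed in sign for 19, and 4 (Ndufab1, Ndufb2, Cox5b and Atp5c1) had an opposite one. Of these 36 further probe sets 6 passed, all higher, against 5.63% of all probe sets tested that were higher. The 6 belong to Cox5b, Ndufv2 and Ndufc1 alone. Among the members that rose, 7 had a further tested probe set, and for 2 of those 7 a further one passed. For 7 members the brightest probe set has a suffix that marks probes shared with other transcripts, and 3 of the 12 that rose are among them (Uqcrq, Cox5b and Atp5c1). Their values are uncertain to that extent.

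The remaining nuclear subunits of the same complexes were read in the same fit. Of 27 tested, 7 rose (25.9%, against 8.11% of all genes) and 1 fell (against 2.56%). The median was 0.23, and 25 were positive (against 50.5%). Ndufb8 and Ndufa13 of complex I rose by 0.44 and 0.28, and Uqcr10, a small complex III subunit, by 0.43 (adjusted p = 0.0276, 0.0233 and 0.0233). The gene that fell was Ndufb11, an X-linked subunit of the membrane arm, named after its value was seen. It had 11.93, 12.00 and 11.97 in TG and 12.18, 12.10, 12.12 and 12.15 in WT, a change of -0.17 ± 0.04 (SE, limma adjusted p = 0.0467).

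Complex II, succinate dehydrogenase, feeds electrons to ubiquinone without pumping protons. All 4 of its subunits had a positive change (against 50.5% of all genes) with a median of 0.14, and 0 passed in limma. At an unadjusted p under 0.05 Sdhd (0.32), Sdhb (0.13) and Sdhc (0.15) would have, against 20.0% of all genes that were higher. Their limma adjusted p values were 0.0664, 0.13 and 0.147.

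Among 18 genes of electron carriers, coupling and nucleotide exchange 4 rose (22.2%, against 8.11% of all genes) and 0 fell (median 0.22). Etfb, which passes electrons from fatty acid oxidation towards ubiquinone, had 10.32, 10.30 and 10.55 in TG and 9.76, 9.72, 9.64 and 9.70 in WT, a change of 0.69 ± 0.08 (SE, limma adjusted p = 0.00902). Its groups were far apart relative to their ranges. Atpif1, the inhibitor of the ATP synthase, which red cell precursors also express strongly, had 10.50, 10.97 and 11.57 in TG and 9.60, 9.83, 9.58 and 9.95 in WT. It rose by 1.27 ± 0.25 (SE, adjusted p = 0.0311), while its 2 dimmer probe sets changed by 0.39 and 0.11 and did not pass. Of 8 erythroid markers measured, some were higher on the same TG arrays. Car1, a red cell carbonic anhydrase, had 7.04, 9.19 and 10.02 in TG and 2.91 to 2.99 in WT, and Klf1, an erythroid transcription factor, had 4.46, 7.13 and 7.50 in TG. Both genes were at background on all 4 WT arrays and entered the test only through TG. Gata1 and Ermap were above background on 2 of 3 TG arrays and on 0 of 4 WT arrays, while the globin gene Hba-a1 was at 2.17 on all arrays. Alas2 and Epor were at background on all arrays, at no more than 3.57 and 2.74. The log2 summed signal of the list was 10.36 to 11.74 on TG arrays and 10.64 to 10.89 on WT arrays, most of it from Car2, at 10.13 to 11.04 in TG and 10.61 to 10.86 in WT. TG replicate 1 had the lowest value of Car1, Klf1 and Atpif1 among the TG arrays and replicate 3 the highest. That order was not particular to erythroid genes: Mpo, Kit and Mki67 showed it too, while S100a8 did not. The part of red cell precursor RNA, or of other cells' RNA, in the Atpif1 result was not tested. The ADP/ATP carrier gene Slc25a4 rose by 0.36 (adjusted p = 0.0379), with both of its other probe sets passing.

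Few genes that build and supply the mitochondrion passed as higher, at shares below the 8.11% of all genes. The shares were 5.71% of 35 assembly factors, 5.71% of 35 ribosome and translation genes and 5.26% of 19 import and folding genes. Each share rests on 1 or 2 genes, and its difference from 8.11% was not tested. A positive change was measured for 27, 30 and 17 genes of these lists, against 50.5% of all genes. Their medians were 0.12, 0.12 and 0.15. As lower, 2.56% of all genes passed. Of 35 assembly factors 2 rose and 1 fell: Uqcc2, for complex III, and Coa5, for complex IV, were higher by 0.49 and 0.41, and Tmem126b, for complex I, changed by -0.36 (adjusted p = 0.0221, 0.0293 and 0.031). The mitochondrial ribosome and its translation factors had 2 of 35 higher, Mrpl12 at 0.36 and Mrpl20 at 0.29, and a median of 0.12; Mrpl27 did not pass (0.52, adjusted p = 0.0547). Of 19 import and folding genes Timm23, the channel of the inner membrane, rose (0.34, adjusted p = 0.0336), while Timm8a1 (0.37, adjusted p = 0.0502) and Timm17a (0.30, adjusted p = 0.0969) did not pass. Among 12 genes of mitochondrial genome expression, Tfam included, 0 passed in limma and 3 had a positive change, with a median of -0.13. At an unadjusted p under 0.05, 4 of the 12 were lower, against 11.0% of all genes. Polg2, Mterf3 and Lrpprc were at -0.19, -0.15 and -0.22 (adjusted p = 0.0879, 0.0897 and 0.161). Transcripts of the mitochondrial genome itself were not analysed here.

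**Figure D4:**
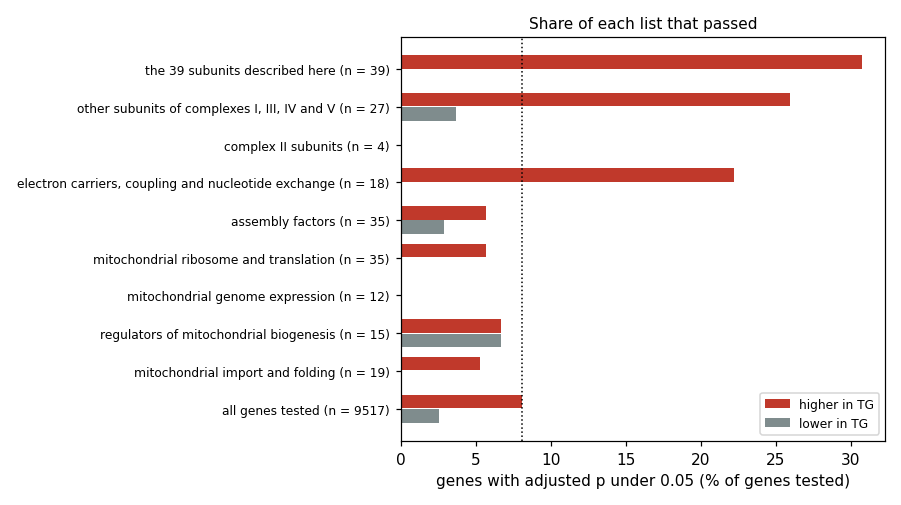
Bars give the percentage of tested genes in each list with an adjusted p under 0.05, higher (red) or lower (grey) in TG than in WT; the dotted line marks the 8.11% of all genes that were higher. The 39 subunits stand at 30.8% and the other subunits of these complexes at 25.9%, and the assembly factors and ribosome genes at 5.71% each.

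Regulators known to drive nuclear genes of respiration were tested too. Of 15, 1 rose (6.67%, against 8.11% of all genes), 1 fell (against 2.56%) and 2 had a positive change (against 50.5%). The median was -0.13. Esrra, which encodes the nuclear receptor ERR alpha, had 8.75, 8.74 and 8.68 in TG and 9.09, 9.21, 9.25 and 9.28 in WT. The groups were narrow and well apart, and the change was -0.48 ± 0.06 (SE, limma adjusted p = 0.0144). A second probe set of Esrra was at -0.24 and did not pass (adjusted p = 0.25).

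The coactivator gene Ppargc1a was near background, with 4.49, 4.04 and 3.55 in TG and 5.20, 5.10, 4.93 and 4.65 in WT. It did not pass by its brightest probe set (adjusted p = 0.056; -0.79 with values under 4 set at 4). Nrf1, a factor that binds many promoters of respiratory genes, had 9.10, 8.87 and 8.62 in TG and 9.49, 9.13, 9.58 and 9.20 in WT, a change of -0.49 ± 0.16 (SE) that did not pass (adjusted p = 0.102). A dimmer probe set of Nrf1, picked out after its value was seen, passed as lower at -0.70 (adjusted p = 0.0279). The dimmer probe sets of Ppargc1a were at background on all 3 TG arrays and above it on all 4 WT arrays, so they give no measured fold. The brighter of them passed as lower (limma adjusted p = 0.0241), having entered the test only through WT.

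Tfam, which packages mitochondrial DNA and takes part in its transcription, had 11.43, 11.40 and 10.81 in TG and 11.50, 11.55, 11.66 and 11.61 in WT. Every TG array was below every WT array, with replicate 3 far below the others, and the change of -0.37 did not pass (adjusted p = 0.166). Gabpa, the DNA-binding subunit of the ETS factor GABP, showed overlapping groups at 9.90 to 10.03 in TG and 9.86 to 10.06 in WT (adjusted p = 0.987). The coactivator genes Ppargc1b and Pprc1 changed by -0.10 and -0.12 (adjusted p = 0.421 and 0.461). Myc, a growth regulator that can raise mitochondrial genes, had 10.52, 10.50 and 10.67 in TG and 9.99, 9.73, 9.39 and 9.53 in WT and rose by 0.90 ± 0.15 (SE, adjusted p = 0.0221). Of 15 cell cycle genes 13 also rose, against 8.11% of all genes. Their part in these results was not tested.

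**Figure D5:**
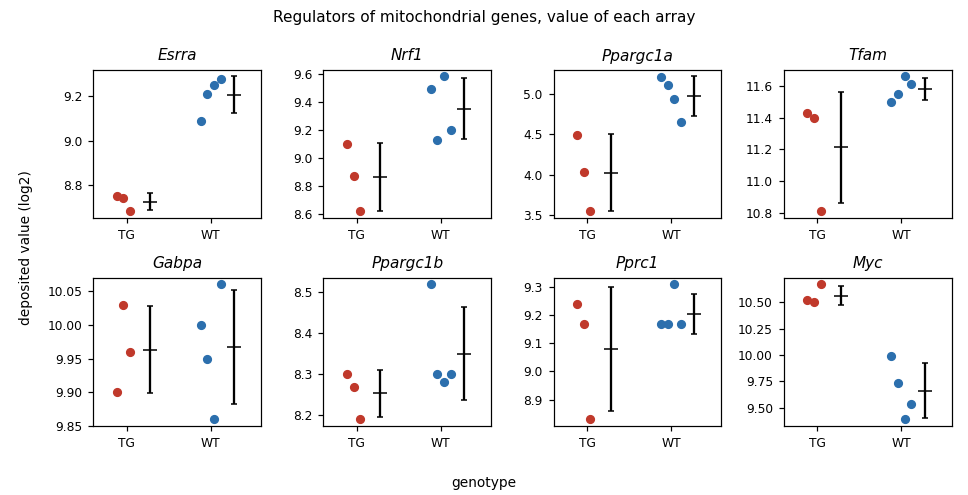
Values of 8 regulators on each array (log2, own axis per panel), TG on the left and WT on the right, with mean and SD bars (n = 3 TG, n = 4 WT). All TG points lie below all WT points for Esrra, Nrf1, Ppargc1a and Tfam and above them for Myc, and of these Esrra and Myc passed the test.

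Promoter windows from 250 bases before to 50 after the start were found for 29 of the 39 members. The letters searched on both strands were GCGC, any base and then TGCGC for NRF1, CCGGAAG for GABPA and other ETS factors, AANATGGCG for YY1, CCAAT for NF-Y, CACGTG for MYC and TCAAGGTCA for ESRRA; none is contained in another. The NRF1 motif was in 4 of 29 member windows (13.8%), against 12.2% of windows of tested genes and 4.78% of all windows. The ETS motif was in 6 (20.7%, against 21.2% and 9.12%) and CCAAT in 8 (27.6%, against 39.3% and 37.9%). CACGTG was in 1, Ndufv1 (3.45%, against 11.1% and 7.24%), and the ESRRA letters in 0 of 29 (against 0.281% and 0.407%).

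The YY1 letters were in 5 member windows (17.2%, against 6.36% of tested and 2.51% of all windows), those of Atp5b, Ndufa9, Ndufc1, Ndufs4 and Ndufs7, and in 0 of the 9 windows of members that rose. Between these 9 windows and the 20 of members that did not pass, the NRF1 motif was in 2 and 2 and the ETS motif in 1 and 5. Base composition bears on such counts: the median GC content was 60.0% in member windows, 61.3% in windows of tested genes and 52.7% in all windows.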

How the data were processed

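RNA of splenic B cells was measured on 7 arrays (3 TG, 4 WT), grouped by the sample titles. The authors deposited log2 values made with GCRMA (named in the submitters' processing notes; version not given in the sources used here). As a method, GCRMA adjusts background by probe sequence and normalizes arrays by quantiles, and dim probe sets share a floor near 2.17. Of 45101 probe sets, 34945 name 1 gene; 932 name several and were not used to name a gene. Probe sets above 4 on at least 3 of 7 arrays were tested (20994, standing for 9517 genes), with limma 3.58.1 in R 4.3.3 (lmFit, eBayes with an intensity trend, Benjamini-Hochberg over all probe sets tested, threshold 0.05, prior degrees of freedom 1.68). The procedure was also run on simulated arrays with independent noise and with set changes larger than the members' median. That run cannot speak to differences that real arrays share, such as cell composition or sex. The values carry no scan date, and batches were not tested. Members and lists were chosen with earlier results of these data known. Every member is accounted for; those given with every array were, per complex, up to 5 that passed with the smallest p, the ends of the range and the change nearest 0; per list, up to 3 with the smallest p; and fixed regulators and isoforms. Promoter sequences are RefSeq's, build GRCm38.p6, at the first start listed per gene. Alternatives changed the filter, normalization, variance model, probe set choice, covariate and arrays.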

Additional observations from a re-analysis of the deposited data

Results flagged for a closer look

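Single WT arrays that stood away from the other 3 of the group were seen for 5 of the genes named or counted, 3 of them subunits. Cox5b was at 12.06 on WT replicate 3, below the other WT arrays, and Atp5b at 13.29 on the same array, also below. Atp5c1 was at 12.46 on WT replicate 1, above the others. Among regulators Ppargc1b was at 8.52 on WT replicate 1 and Pprc1 at 9.31 on WT replicate 3, both above the others. Chance gives such a value in about 5% of groups, and 69 genes were looked at.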

How the results depend on the processing

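The members' median change stayed positive under the 18 alternatives, while the number of genes past the threshold varied widely. That median ran from 0.14 to 0.21 against 0.17 as reported (0.21 without TG replicate 1, 0.20 with the Xist covariate and 0.21 with high-Xist arrays moved by more than the spread between arrays), with 35 or 36 of 39 positive, and 0 members passed as lower in any of them. As reported, 12 members and 18 other pathway genes were higher, and 1016 of all genes were called in either direction. In the same order these counts were 0, 1 and 116 with no filter and 23, 55 and 2482 with array weights. They were 0, 2 and 156 with the Xist level as a covariate and 0, 0 and 12 with the arrays of high Xist alone. With TG replicate 3 and WT replicate 4 both left out they were 1, 2 and 408. As a method, array weights lower the influence of variable arrays. The causes of these shifts were not tested. Leaving out 1 array at a time gave 0 to 13 members, 1 to 20 pathway genes higher and 87 to 1074 of all genes in either direction. Replicate numbers did not pair the arrays: deviations of same-numbered arrays correlated at -0.0432, -0.142 and -0.287, and 0 of 6 arrays was closest to its own number. With the number as a block, which leaves out WT replicate 4, 0 members, 0 pathway genes and 3 of all genes in either direction passed. Signs turned for 1 member, Ndufs7, which ran from -0.10 to 0.05 over fits without 1 array. It was at 0.06 with array weights, 0.01 with the block and without WT replicate 4, 0.05 without TG replicate 3, with the Xist covariate and with high-Xist arrays, and 0.09 without TG replicate 3 and WT replicate 4. Gabpa ran from -0.04 to 0.03 without 1 array and was at 0.02 with array weights, 0.03 with the block, without TG replicate 1, without WT replicate 4 and without TG replicate 3 and WT replicate 4, and 0.01 without WT replicate 1; Pprc1 ran from -0.20 to 0.0022, the last of these without TG replicate 3. No scanner files were used, so signal over background could not be examined.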
